A study of Homo sapiens with 40 samples.

Results

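The tricarboxylic acid (TCA) cycle and pyruvate entry genes are 33 of the 28278 gene symbols in the count table, and all 33 were among the 16739 genes with enough counts to be tested. They were chosen by symbol, as genes known for these steps. They comprise 19 genes of cycle enzymes, 4 subunits of the pyruvate dehydrogenase complex, 5 kinases and phosphatases of that complex, and 5 genes of pyruvate transport, pyruvate carboxylation and malate oxidation. Bulk RNA-seq was done on HEK293T cells, a human embryonic kidney line, in 5 lines. Vector was put into wild-type cells (WT vector) and into SLC25A12 knockout cells (KO vector). A further line is labelled KO plus SLC25A12-WT, another carries SLC25A12-F137S in the knockout (F137S cells), and the last carries dMTS-DELE1 beside SLC25A12-F137S in the knockout (dMTS-DELE1 cells). SLC25A12 is the mitochondrial aspartate and glutamate carrier, and DELE1 is a relay of mitochondrial stress to the integrated stress response. For 6 hours the cells were given vehicle or antimycin A at 40 nM, which blocks respiratory complex III. Each of the 10 groups has 4 libraries, 40 in total. The 4 knockout lines are labelled with the same knockout genotype, and no source used here says whether a line is 1 clone. The labels call the libraries biological replicates without naming separate cultures, so the p-values measure the spread between these libraries, which may be technical.

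Pyruvate made by glycolysis enters mitochondria through the pyruvate carrier of MPC1 and MPC2. There the pyruvate dehydrogenase complex turns it into acetyl-CoA, or pyruvate carboxylase (PC) turns it into oxaloacetate. Kinases (PDK) phosphorylate and inactivate the complex, and phosphatases (PDP) reactivate it. The cycle oxidizes acetyl-CoA and hands electrons to the respiratory chain, and succinate dehydrogenase (SDHA to SDHD) is at once a cycle enzyme and respiratory complex II.

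Each library held 30.7 to 32.0 counts in units of 1e6, and the member genes took 0.376% to 0.422% of them. The lowest count of a member in any library was 504, and the common biological coefficient of variation was 0.0509. Levels are in CPM, counts scaled to a library total of 1e6, and log2 fold changes are given ± standard error from 1 fit of all libraries (n = 4 per group). A gene rose, fell, or was higher or lower, where its p from edgeR's quasi-likelihood test, adjusted over all tested genes by Benjamini-Hochberg, was under 0.05. In vehicle, SLC25A12 stood at 36.1 to 39.9 CPM in WT-vector cells, 2.96 to 3.43 CPM in KO-vector cells, 1826 to 1867 CPM with F137S and 3693 to 3745 CPM with dMTS-DELE1. The libraries labelled KO plus SLC25A12-WT had 38.4 to 39.2 CPM, the range of WT-vector cells, and are named by that label throughout because the count goes against a knockout with an added gene. DELE1 stood at 43.1 to 47.9 CPM in F137S and 5272 to 5464 CPM in dMTS-DELE1 cells, so those lines differed in the amount of both transcripts. Of 12 kidney markers, UMOD was at 0 in all 4 libraries of every group, and the summed level of the 12 was 8.01 to 17.5 CPM.

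The levels of the members, per kilobase of exon sequence in WT-vector cells on vehicle, spanned from citrate synthase (CS) at 179 ± 2.1 CPM per kb (mean ± SD) to PDK1 at 3.47 ± 0.195 CPM per kb. Per kilobase of coding sequence CS stood at 403 ± 4.72 CPM, second to SDHC, a membrane anchor of succinate dehydrogenase, at 427 ± 5.05 CPM. The place of SDHC rests on its gene model, which has 13566 bases of exon sequence and 507 coding bases, and per kb of exon it stood at 15.9 ± 0.189 CPM. Among the member kinases PDK3 was the most abundant on both scales, at 42.4 ± 0.558 CPM per kb of exon and 85.6 ± 1.13 CPM per coding kb. PDK1 and PDK2 changed places between the scales, since per coding kb PDK1 had 36.2 ± 2.04 and PDK2 had 16.1 ± 1.06 CPM. The low place of PDK1 per kb of exon rests on its gene model, with 14253 bases of exon sequence and 1368 coding bases. Per coding kb PC was the lowest member, at 7.76 ± 0.306 CPM. OGDH, the E1 subunit of 2-oxoglutarate dehydrogenase, exceeded its isoenzyme OGDHL on both scales, with 16.1 ± 0.578 against 8.85 ± 0.165 CPM per kb of exon. Reads of SDHA may be shared with near-identical pseudogenes, since SDHAP1, SDHAP2 and SDHAP3 together held 17.0% as many counts as SDHA. No source used here gives the strandedness of the counting, and 11 members have exons that overlap exons of a gene on the opposite strand. The longest overlaps are 2608 bases of IDH3A with ACSBG1 and 2113 bases of PDK2 with SAMD14. ACSBG1 held 1.54% as many counts as IDH3A and SAMD14 held 5.03% as many as PDK2.

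RefSeq promoter sequences (GRCh38.p14) matched 30 of the 33 members, all but OGDH, SDHC and PDP1, and the 250 bases before each start were searched on both strands. Only the first listed start of each gene was used. The windows of PDP2, MPC2, DLAT, IDH2 and IDH3A, among others, lie inside the GENCODE span of the gene. Whether these starts are the ones used in these cells was not tested. The NRF1 palindrome (GCGCA, any 1 base, then GCGC), bound by a regulator of nuclear genes for mitochondria, was present in 6 of 30 member promoters (20%), against 5.53% of 27303 promoters and 9.33% of those of tested genes. These members were IDH3A, IDH3G, MPC2, SDHA, SDHD and SUCLA2. The hypoxia response core ACGTG was present in 8 of 30 (26.7%), against 18.7% and 22.7%, and TGATGNAA, a core of ATF4 composite sites, in 0 of 30 against 3.19% and 1.47%. Member promoters had a median GC content of 68.8% against 58% over all promoters. The sequences below belong to members called in 1 direction in all 5 antimycin responses that hold a match. Capitals mark the NRF1 palindrome in SDHA and MPC2, and ACGTG or its reverse complement in PDP2, DLAT and PDK3, each printed 5′ to 3′ on the gene's strand. A match is a description of these letters and not a site of binding.
SDHA (chr5:218070-218319, plus strand): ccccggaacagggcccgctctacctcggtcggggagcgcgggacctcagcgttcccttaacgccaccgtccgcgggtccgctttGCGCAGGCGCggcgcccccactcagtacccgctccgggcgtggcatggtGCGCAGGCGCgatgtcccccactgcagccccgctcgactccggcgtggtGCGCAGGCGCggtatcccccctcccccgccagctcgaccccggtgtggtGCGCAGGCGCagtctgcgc
MPC2 (chr1:167935997-167936246, minus strand): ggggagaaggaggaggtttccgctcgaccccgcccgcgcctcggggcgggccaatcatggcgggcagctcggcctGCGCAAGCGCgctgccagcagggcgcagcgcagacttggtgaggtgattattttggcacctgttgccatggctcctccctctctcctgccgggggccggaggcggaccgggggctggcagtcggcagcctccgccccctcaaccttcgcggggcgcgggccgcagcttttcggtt
PDP2 (chr16:66880265-66880514, plus strand): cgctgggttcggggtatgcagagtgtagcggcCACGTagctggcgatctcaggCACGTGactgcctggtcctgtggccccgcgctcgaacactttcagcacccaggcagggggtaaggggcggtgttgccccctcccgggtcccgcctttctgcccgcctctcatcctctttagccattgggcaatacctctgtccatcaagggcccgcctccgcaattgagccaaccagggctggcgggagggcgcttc
DLAT (chr11:112025158-112025407, plus strand): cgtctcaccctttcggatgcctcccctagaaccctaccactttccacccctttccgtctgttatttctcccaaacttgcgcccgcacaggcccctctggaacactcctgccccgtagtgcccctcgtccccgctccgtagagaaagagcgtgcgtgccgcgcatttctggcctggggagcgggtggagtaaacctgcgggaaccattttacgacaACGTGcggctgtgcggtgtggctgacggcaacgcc
PDK3 (chrX:24465036-24465285, plus strand): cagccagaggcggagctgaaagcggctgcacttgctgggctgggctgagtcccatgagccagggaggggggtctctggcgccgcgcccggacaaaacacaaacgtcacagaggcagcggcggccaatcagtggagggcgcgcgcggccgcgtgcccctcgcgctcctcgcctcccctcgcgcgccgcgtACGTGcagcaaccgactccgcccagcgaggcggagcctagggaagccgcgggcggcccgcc
SDHA, the flavoprotein of succinate dehydrogenase, holds 4 copies of the palindrome in this window, and MPC2 holds 1. PDP2 holds 3 matches to the core, with CACGTG counted on both strands, while DLAT and PDK3 hold 1 each.

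Antimycin moved members in both directions in every line, and the changes were small. In WT-vector cells 13 rose and 6 fell, together 57.6% of the members, where 51.9% of all tested genes were called (25.5% rose and 26.4% fell). In KO-vector cells 12 rose and 8 fell, beside 51% of tested genes called (26.4% rose and 24.7% fell). In libraries labelled KO plus SLC25A12-WT 11 rose and 7 fell, beside 52.3% (25.9% and 26.4%). F137S cells had 16 that rose and 7 that fell, beside 51.2% (26.3% and 24.9%). With dMTS-DELE1 7 rose and 6 fell, beside 34.9% (17.6% and 17.3%). The median log2 fold change of the members was 0.04 in WT-vector and KO-vector cells, 0.03 in the labelled libraries, 0.05 with F137S and -0.0045 with dMTS-DELE1, beside 0.01 to 0.02 for all tested genes. The largest change was that of PDP1 in WT-vector cells. Calls that held under each alternative setting and with each library left out numbered 12 of 19, 17 of 20, 15 of 18, 16 of 23 and 8 of 13 in the order of the lines above. The 5 responses share no library. Markers moved with antimycin as well. The summed level of 4 neuronal markers went from 344 to 362 CPM on vehicle to 287 to 302 CPM in WT-vector cells and from 184 to 191 CPM to 157 to 166 CPM in KO-vector cells. That of 4 epithelial markers went from 135 to 142 CPM to 165 to 172 CPM and from 189 to 194 CPM to 218 to 230 CPM. Both sums moved in these directions without overlap in each of the 5 lines. Over all libraries NEFM ranged from 50.8 to 235 CPM and KRT8 from 78.1 to 176 CPM, the widest spans of their lists. STMN2 reached at most 4.62 CPM and EPCAM 5.83 CPM. A single gene can therefore carry much of a sum, and the sums do not show that each marker moved. In bulk RNA, fewer cells of a type and less RNA per cell cannot be told apart, and the part of these markers in the member changes was not tested.

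Members called in 1 direction in all 5 lines were IDH2, OGDH, SDHA, PDP1, PDP2 and MPC2, which rose, and DLAT, PDK1, PDK3 and ME1, which fell. The 6 that rose are 18.2% of the members, where 11.3% of all tested genes rose in all 5 lines, and the 4 that fell are 12.1%, where 13.1% of all tested genes fell. With the libraries of that labelled line set aside, 7 members rose (21.2%, beside 11.7% of tested genes) and 4 fell (12.1%, beside 13.3%) in each of the other 4 lines, and the added gene was SUCLG1. Its call ended in WT-vector cells without antimycin replicate 1 (adjusted p = 0.0707) or 4 (0.0651) or vehicle replicate 2 (0.0697) or 4 (0.0504), and in dMTS-DELE1 cells without antimycin replicate 2 (0.235), 3 (0.0525) or 4 (0.205) or vehicle replicate 1 (0.133), 2 (0.0778) or 3 (0.124), as well as in the fit of those groups alone (0.109) and with no filter (0.0503). The calls of IDH2, OGDH, SDHA, PDP1, PDP2, DLAT, PDK1 and PDK3 held with each library left out and under each alternative setting. MPC2 was no longer called in dMTS-DELE1 cells without antimycin replicate 3 (adjusted p = 0.0861) or 4 (0.187) or vehicle replicate 1 (0.0626) or 2 (0.138), or in a fit of those groups alone (0.0543). ME1 was no longer called in those cells without antimycin replicate 1 (0.0831) or vehicle replicate 2 (0.0646) or 3 (0.129), or with no filter on low counts (0.0608). In WT-vector cells the ME1 call ended without antimycin replicate 2 (0.0566) or 3 (0.0763) or vehicle replicate 1 (0.0582) or 3 (0.137). No line called ACO1, IDH3A, IDH3B, SUCLG2, SDHD, FH, PDHB or PC.

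**Figure D1:**
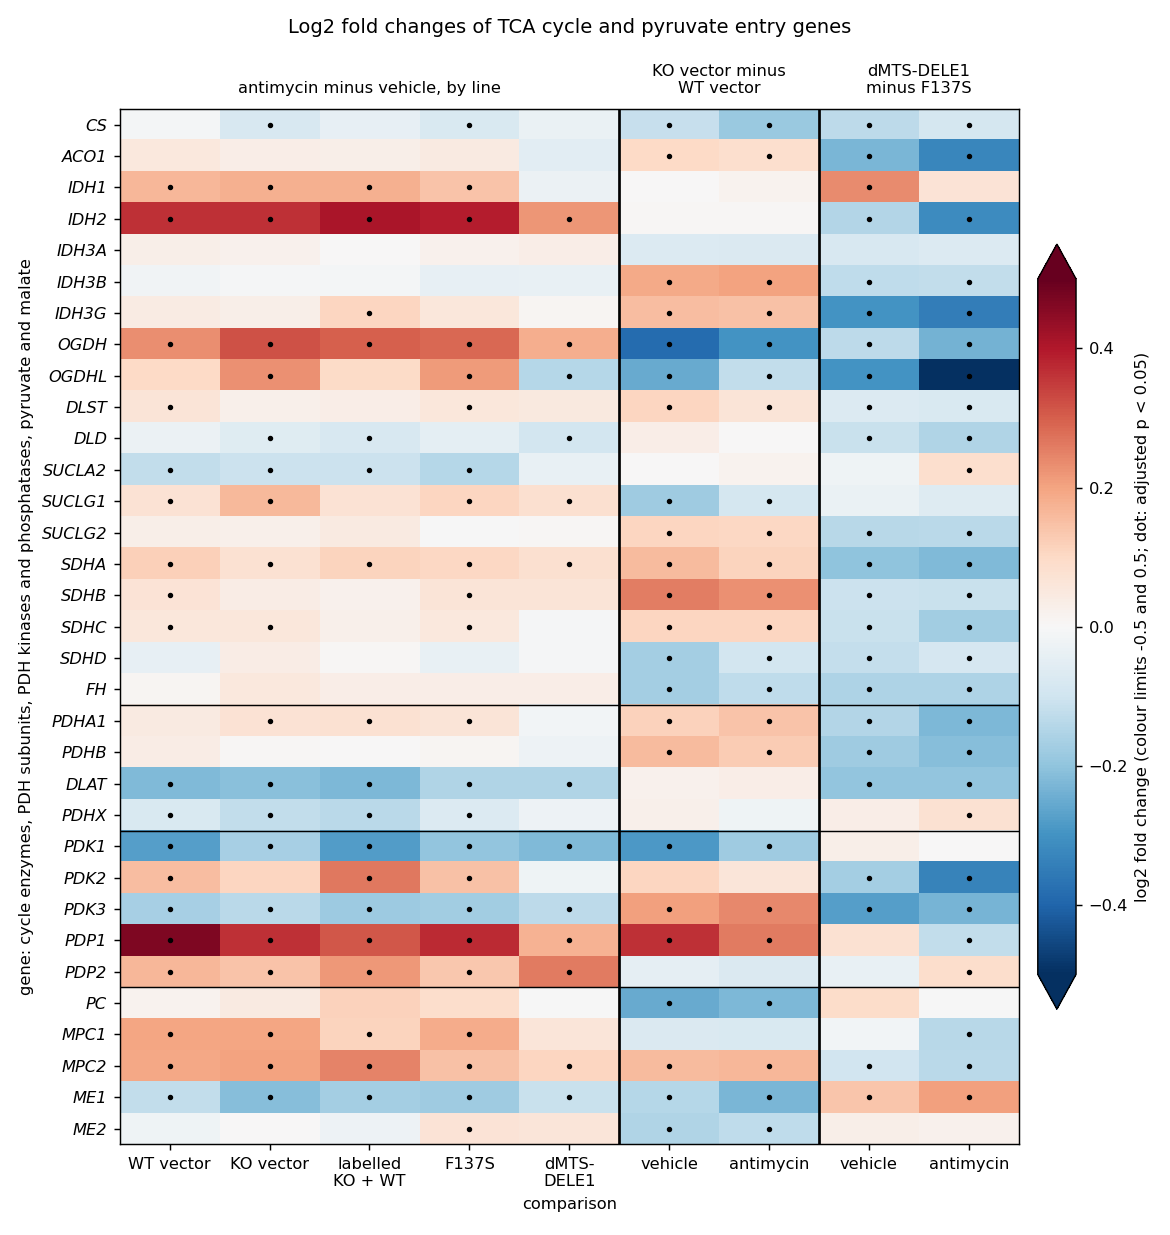
Log2 fold change of each member (rows, grouped as cycle enzymes, pyruvate dehydrogenase subunits, its kinases and phosphatases, and pyruvate and malate genes) in 9 comparisons (columns); a dot marks an adjusted p under 0.05 and colours saturate at -0.5 and 0.5. IDH2, OGDH and PDP1 are red and DLAT, PDK1 and PDK3 blue in all 5 antimycin columns, and the dMTS-DELE1 minus F137S columns are mostly blue.

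Both phosphatases of the pyruvate dehydrogenase complex rose, while PDK1 and PDK3, kinases that inactivate it, fell. PDP1, the catalytic subunit of the calcium-responsive phosphatase, had 33.2, 31.6, 34.99 and 31.2 CPM in the 4 WT-vector vehicle libraries and 43.3, 46.3, 42.9 and 48.5 CPM with antimycin. KO-vector cells had 44.98, 42.8, 41.5 and 39.3 CPM on vehicle and 54.4, 53.7, 52.4 and 56.5 CPM with antimycin. The libraries of the 2 treatments did not overlap in either line, which held for 46.4% of all tested genes in WT-vector and 45.2% in KO-vector cells. The log2 fold change of PDP1 was 0.47 ± 0.043 in WT-vector (adjusted p = 8.67e-16) and 0.36 ± 0.042 in KO-vector cells (adjusted p = 5.79e-12). It was 0.31 ± 0.043 in the labelled line, 0.37 ± 0.042 with F137S and 0.18 ± 0.042 with dMTS-DELE1. PDP2, the second phosphatase, went from 58.4, 54.9, 58.1 and 54.01 CPM to 61.9, 63.8, 66.3 and 61.1 CPM in WT-vector cells, again without overlap. Its log2 fold change ranged from 0.13 in F137S to 0.26 in dMTS-DELE1 cells, the line in which PDP1 had its lowest value.

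PDK1, the kinase known as a hypoxia-inducible gene, had 49.4, 45.8, 52.5 and 50.3 CPM on vehicle and 39.2, 43.4, 40.05 and 40.96 CPM with antimycin in WT-vector cells, and every antimycin library was below every vehicle library. Its log2 fold change was -0.28 ± 0.044 there (adjusted p = 1.62e-07) and ranged from -0.28 to -0.17 over the 5 lines. PDK3, the most abundant kinase among the members, went from 107, 108, 105 and 106 CPM to 92.2, 92.1, 92.8 and 102 CPM, with 1 antimycin library close to the vehicle range. Its log2 fold change ran from -0.18 to -0.13 over the lines. PDK2, the third kinase among the members and the least abundant of them per coding kb, did not share that direction. PDK4, a kinase of the same family outside the members, rose in WT-vector cells and was not called in KO-vector cells, as given under other observations. The PDK2 values are as follows. PDK2 rose in cells labelled KO plus SLC25A12-WT (0.26 ± 0.062, adjusted p = 0.000229), where 18.9, 17.9, 20.01 and 18.4 CPM became 22.3, 22.9, 23.2 and 21.7 CPM. It was also called in WT-vector cells (0.15 ± 0.062), which ended without antimycin replicate 3 (adjusted p = 0.108) or vehicle replicate 3 (0.104) or 4 (0.0679). In F137S cells the call (0.15 ± 0.062) ended without antimycin replicate 2 (0.0804) or 4 (0.0679) or vehicle replicate 1 (0.0596), 2 (0.0564) or 4 (0.0982). In dMTS-DELE1 cells PDK2 stood at -0.02 ± 0.063 (adjusted p = 0.827).

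**Figure D2:**
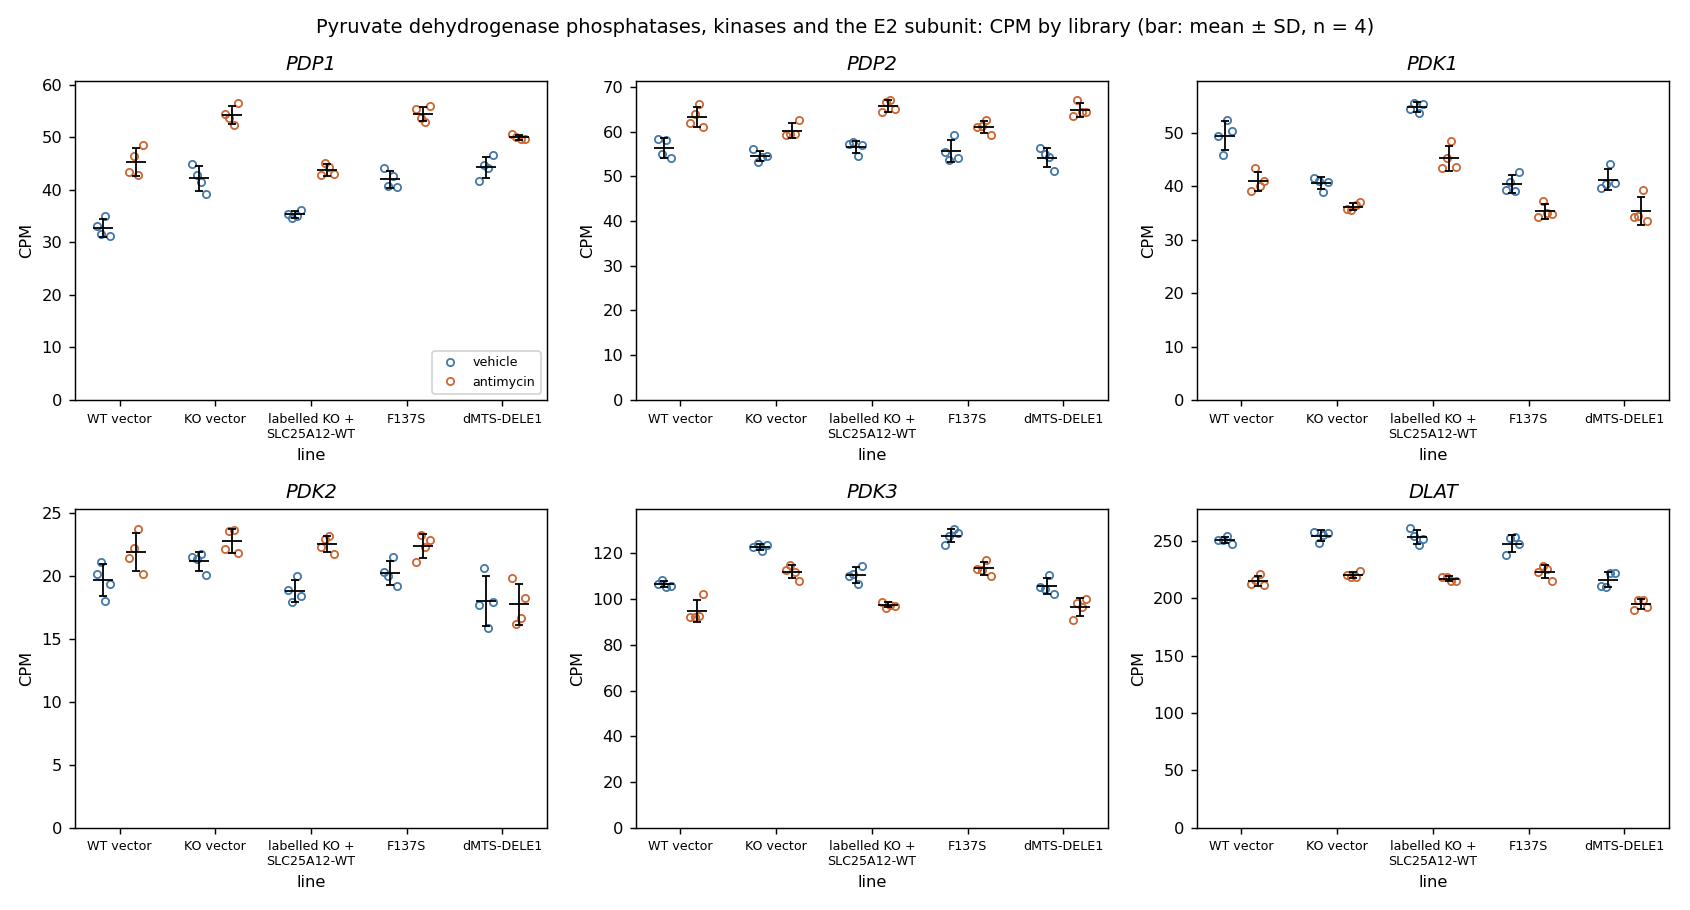
CPM in each library (circles) by line, for vehicle and 40 nM antimycin, with the mean ± SD of 4 libraries (bars), for 2 phosphatases, 3 kinases and the E2 subunit of pyruvate dehydrogenase. PDP1 and PDP2 are higher and PDK1, PDK3 and DLAT lower with antimycin in each line.

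The ratio of PDP1 to PDK1 counts within a library does not depend on the scaling between libraries. In WT-vector cells it was 0.621 to 0.690 on vehicle and 1.07 to 1.18 with antimycin. KO-vector cells had 0.961 to 1.08 on vehicle, above each WT-vector vehicle library, and 1.44 to 1.53 with antimycin. The libraries labelled KO plus SLC25A12-WT went from 0.623 to 0.653 to 0.914 to 0.998. F137S cells went from 0.951 to 1.12 to 1.44 to 1.62, and dMTS-DELE1 cells from 0.999 to 1.15 to 1.27 to 1.48. In none of the 5 lines did the vehicle and antimycin ratios overlap. The ratios of PDP2 to PDK3 and of PDP1 to PDK3 also went up with antimycin in each line, without overlap. On vehicle PDP2 to PDK3 was 0.506 to 0.551 in WT-vector cells and went the other way in KO-vector cells, to 0.429 to 0.457. PDP1 to PDK3 overlapped between those lines on vehicle, at 0.291 to 0.332 and 0.318 to 0.366 in that order. These ratios are a description of counts and have no test of their own. Both phosphatases rose and PDK1 and PDK3 fell in all 5 lines, so the rise of the ratios with antimycin restates those calls. No ratio to PDK2, which rose in 3 of the 5 lines, was taken.

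**Figure D3:**
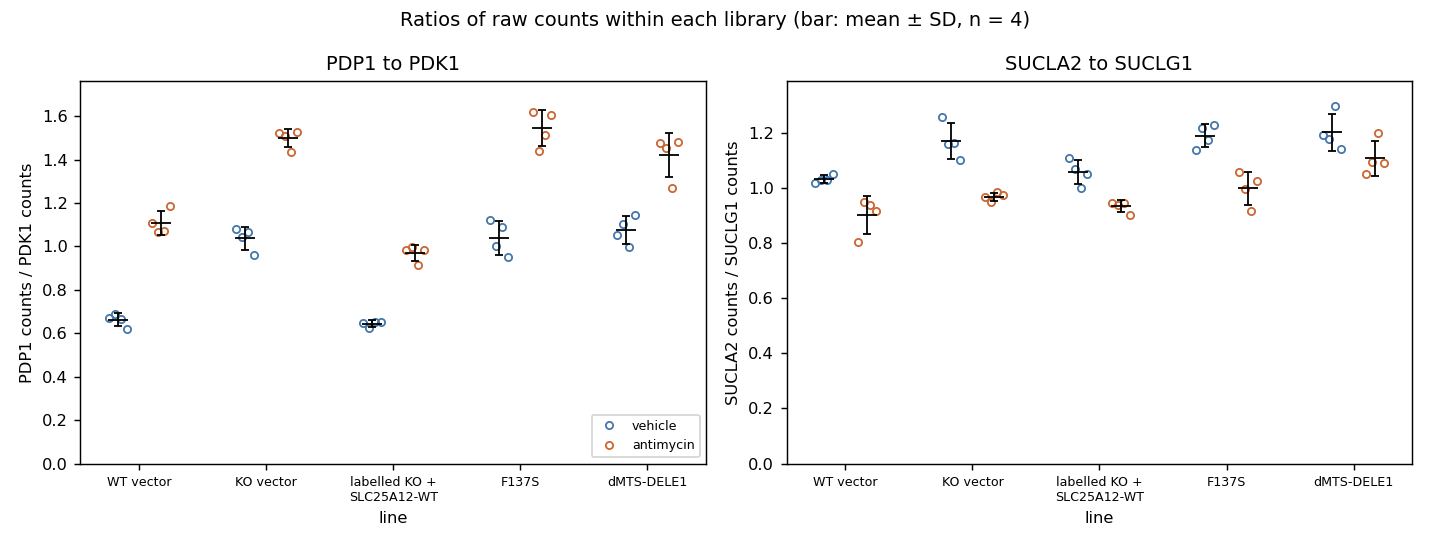
Ratio of raw counts of PDP1 to PDK1 (left) and SUCLA2 to SUCLG1 (right) in each library (circles) by line and treatment, with the mean ± SD of 4 libraries (bars). The PDP1 to PDK1 ratio is higher with antimycin in each line, and the vehicle ratio is near 1 in the KO-vector, F137S and dMTS-DELE1 lines.

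Of the 4 subunit genes, DLAT, the E2 core that carries lipoate, fell, and the E1 genes did not follow it. DLAT had 250.4, 251, 254 and 247 CPM on vehicle and 212, 216, 222 and 212 CPM with antimycin in WT-vector cells, well apart. Its log2 fold change was -0.22 ± 0.023 there (adjusted p = 1.16e-13), and over the lines it ran from -0.22 to -0.15. PDHA1, the catalytic E1 alpha subunit, stood at 0.05 ± 0.023 in WT-vector cells (adjusted p = 0.085) and rose by 0.07 ± 0.023 in KO-vector cells. PDHB, the E1 beta subunit, had 0.04 ± 0.025 in WT-vector cells (adjusted p = 0.224). The ratio of DLAT to PDHA1 counts was 1.25 to 1.36 on vehicle and 1.05 to 1.11 with antimycin in WT-vector cells. PDHX, which anchors E3 to the core, fell in 4 of the 5 lines, all but dMTS-DELE1 cells. In KO-vector cells it had -0.12 ± 0.030 (adjusted p = 0.000364). Its calls in WT-vector and F137S cells did not hold under each alternative setting and with each library left out.

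Among cycle enzymes, the NADP-dependent isocitrate dehydrogenase of mitochondria, IDH2, had the highest log2 fold change of the 19 cycle genes in each of the 5 lines. IDH2 had 84.8, 83.5, 79.8 and 83.997 CPM on vehicle and 109, 105, 107 and 106 CPM with antimycin in WT-vector cells. The groups were far apart, with a log2 fold change of 0.37 ± 0.029 (adjusted p = 1.55e-18). It was 0.37 ± 0.029 in KO-vector cells, 0.41 ± 0.029 in the labelled line, 0.39 ± 0.029 with F137S and 0.22 ± 0.030 with dMTS-DELE1. The cytosolic isoenzyme IDH1 rose less, by 0.17 ± 0.033 in WT-vector cells, and had -0.03 ± 0.033 in dMTS-DELE1 cells (adjusted p = 0.537). Of the NAD-dependent enzyme of the cycle, IDH3A (0.03 ± 0.037, adjusted p = 0.551) and IDH3B (-0.02 ± 0.028, adjusted p = 0.619) passed in no line, with these values in WT-vector cells. IDH3G, the gene of the remaining subunit, had 0.04 ± 0.037 there (adjusted p = 0.37), and was called without antimycin replicate 4 (0.0398). IDH3G rose in the labelled line (0.11 ± 0.037, adjusted p = 0.0127), a call that ended without vehicle replicate 1 (0.114).

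OGDH rose from 73.7, 78.7, 80.03 and 78.8 CPM to 89.3, 89.7, 95.4 and 91.5 CPM in WT-vector cells (0.23 ± 0.034, adjusted p = 1.13e-08). The other parts of that complex, DLST (E2) and DLD (E3, shared with pyruvate dehydrogenase), had 0.07 ± 0.023 (adjusted p = 0.011) and -0.03 ± 0.025 (adjusted p = 0.351) there. OGDHL, the isoenzyme, rose in KO-vector cells (0.23 ± 0.047) and F137S cells (0.21 ± 0.047) and had the opposite sign in dMTS-DELE1 cells (-0.14 ± 0.050, adjusted p = 0.0175). That fall was no longer called without dMTS-DELE1 antimycin replicate 3 (adjusted p = 0.0741) or vehicle replicate 1 (0.0744), or in a fit of those groups alone (0.0525). Succinyl-CoA synthetase changed in its parts, with SUCLA2, the ADP-forming beta subunit, falling in 4 of the 5 lines, all but dMTS-DELE1 cells. In F137S cells SUCLA2 had -0.14 ± 0.035. Only there did its call hold under each alternative setting and with each library left out. SUCLG1, the shared alpha subunit, rose in KO-vector (0.16 ± 0.033) and F137S cells (0.11 ± 0.033). The ratio of SUCLA2 to SUCLG1 counts went from 1.02 to 1.05 to 0.802 to 0.947 in WT-vector cells. Of succinate dehydrogenase, SDHA rose in each line (0.08 to 0.12), and SDHD, a membrane anchor, passed in none (-0.04 in WT-vector cells, adjusted p = 0.271).

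Of the pyruvate carrier genes, MPC2 rose in each line and MPC1 in each line but dMTS-DELE1 cells. The MPC2 call in dMTS-DELE1 cells did not hold with each library left out, as given above. MPC2 had 49.7, 54.8, 51.5 and 54.3 CPM on vehicle and 62.2, 58.99, 59.8 and 59.6 CPM with antimycin in WT-vector cells (0.19 ± 0.040), and MPC1 was at 0.20 ± 0.035. In dMTS-DELE1 cells MPC1 had 0.06 ± 0.036 (adjusted p = 0.192). ME1, cytosolic malic enzyme, fell in KO-vector cells (-0.21 ± 0.044), from 42.9, 40.5, 41.1 and 42.4 CPM to 36.4, 36.4, 36.5 and 34.9 CPM. PC, pyruvate carboxylase, had 0.02 ± 0.053 in WT-vector cells (adjusted p = 0.789).

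Genes around these enzymes moved in both directions as well. Of 22 genes for lipoate, cofactors and assembly, 6 rose and 3 fell in WT-vector cells, and 8 rose and 3 fell in KO-vector cells. As given above, 25.5% of all tested genes rose and 26.4% fell in the former, and 26.4% and 24.7% in the latter. LIAS, lipoyl synthase, which makes the cofactor carried by DLAT and DLST, fell in all 5 lines (-0.59 to -0.34). SDHAF4, an assembly factor of succinate dehydrogenase, rose in all 5 (0.76 to 0.90), a larger log2 fold change than that of any member. Of 10 tested isoenzymes and partners, 5 rose and 1 fell in WT-vector cells (60% called, beside 51.9% of all tested genes). IREB2, the iron regulatory relative of ACO1, fell (-0.52 ± 0.022), while ACO1 passed in no line. Of 22 genes that feed the cycle or draw from it, 11 rose and 2 fell in WT-vector cells (59.1% called, beside the same 51.9%). GPT2, which makes 2-oxoglutarate and alanine from pyruvate and glutamate, rose there (0.46 ± 0.034) and stood at 0.01 ± 0.033 in dMTS-DELE1 cells (adjusted p = 0.792).

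KO-vector and WT-vector cells differed at many members on vehicle. Of the 33, 13 were higher and 10 lower in KO-vector cells (48.3% of all tested genes were called, 22.7% higher and 25.6% lower), and all 23 held under the alternatives and with each library left out. The median log2 fold change was 0.02, beside -0.01 for all tested genes. Lower in KO-vector cells were OGDH (-0.39 ± 0.035, adjusted p = 4.01e-16), PDK1 (-0.29 ± 0.044), OGDHL (-0.25 ± 0.047) and PC (-0.25 ± 0.054). OGDH stood at 58.5, 61.7, 60.6 and 57.4 CPM in KO-vector against 73.7, 78.7, 80.03 and 78.8 CPM in WT-vector vehicle libraries, and no value crossed. Fumarase (FH, -0.17 ± 0.029) and the malic enzymes ME1 (-0.14 ± 0.043) and ME2 (-0.15 ± 0.029) were lower as well. Higher in KO-vector cells were PDP1 (0.36 ± 0.043), SDHB, the iron-sulfur subunit (0.26 ± 0.026), PDK3 (0.21 ± 0.029) and IDH3B (0.19 ± 0.028). The 4 subunits of succinate dehydrogenase split, with SDHA, SDHB and SDHC higher and SDHD lower (-0.17 ± 0.030). SDHB had 159.7, 163, 157 and 158 CPM in KO-vector and 134, 136.7, 134 and 130.1 CPM in WT-vector cells. The ratio of SDHB to SDHD counts was 1.32 to 1.42 in KO-vector and 0.985 to 1.05 in WT-vector vehicle libraries. Both E1 subunit genes were higher, PDHA1 by 0.12 and PDHB by 0.16, and DLAT was at 0.02 ± 0.023 (adjusted p = 0.454).

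Around them, 1 of the 22 lipoate, cofactor and assembly genes was higher and 9 were lower in KO-vector cells on vehicle, and of the 22 feeding and exporting genes 4 were higher and 10 lower. These are 45.5% and 63.6% called, beside 48.3% of all tested genes (22.7% higher and 25.6% lower). ACLY, which makes cytosolic acetyl-CoA from citrate, was lower (-0.35 ± 0.017), as were LDHA, lactate dehydrogenase (-0.34 ± 0.019), and GLUD1, glutamate dehydrogenase (-0.28 ± 0.021).

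With antimycin the same comparison of lines gave 13 higher and 10 lower members (48% of tested genes were called, 23.5% higher and 24.5% lower). Of these 23 calls 19 held under the alternatives and with each library left out, and those of ACO1, OGDHL, DLST and SUCLG2 did not. OGDH was at -0.30 ± 0.034, PDP1 at 0.26 ± 0.041 and SDHB at 0.23 ± 0.026. The antimycin response itself was called different between the 2 lines for 0 members by edgeR's quasi-likelihood test, where 1.57% of tested genes were called (0.836% higher and 0.729% lower), and 1 member had an unadjusted p under 0.05. DESeq2 also called 0.

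Markers moved with this difference between lines. The summed level of 4 neuronal markers was 344 to 362 CPM in WT-vector and 184 to 191 CPM in KO-vector vehicle libraries, and that of 4 epithelial markers was 135 to 142 against 189 to 194 CPM. NEFM (50.8 to 235 CPM over all libraries) and KRT8 (78.1 to 176 CPM) had the widest spans of their lists. The sums do not show that each marker moved. Of 14 tested hypoxia-inducible targets, 9 were lower and 0 higher in KO-vector cells (64.3% called, beside 48.3% of all tested genes, 25.6% lower and 22.7% higher), among them NDRG1 (-0.97 ± 0.037). The part of these markers in the member changes was not tested.

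F137S cells set against the libraries labelled KO plus SLC25A12-WT, a comparison added after the data were seen, shared no library with KO-vector against WT-vector. In F137S cells 12 members were higher and 11 lower (48.9% of tested genes were called, 23.2% higher and 25.7% lower). Of the 23 calls in each comparison, 22 were made in both with the same direction, 95.7% of each list. Over all tested genes the shares were 82.9% and 81.8%. The tested genes include genes of lower count than any member. On vehicle, labelled and WT-vector libraries differed at 0% of tested genes, and F137S and KO-vector libraries at 0.0836%, as given below. With so few genes called within these pairs, a high overlap and correlation could be foreseen. They add little as a separate check of the difference between KO-vector and WT-vector cells. SUCLG2 was called in KO-vector against WT-vector alone and MPC1 in the other alone. Across the 33 genes, which are not independent replicates, the log2 fold changes correlated at r = 0.96 as a description, beside 0.814 over all tested genes. PDK1 was at -0.44 ± 0.044 in this comparison, OGDH at -0.31 ± 0.035 and PDP1 at 0.25 ± 0.043. PDK1 had 39.4, 40.8, 39.05 and 42.7 CPM in F137S and 54.5, 55.7, 53.6 and 55.4 CPM in the labelled vehicle libraries.

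**Figure D4:**
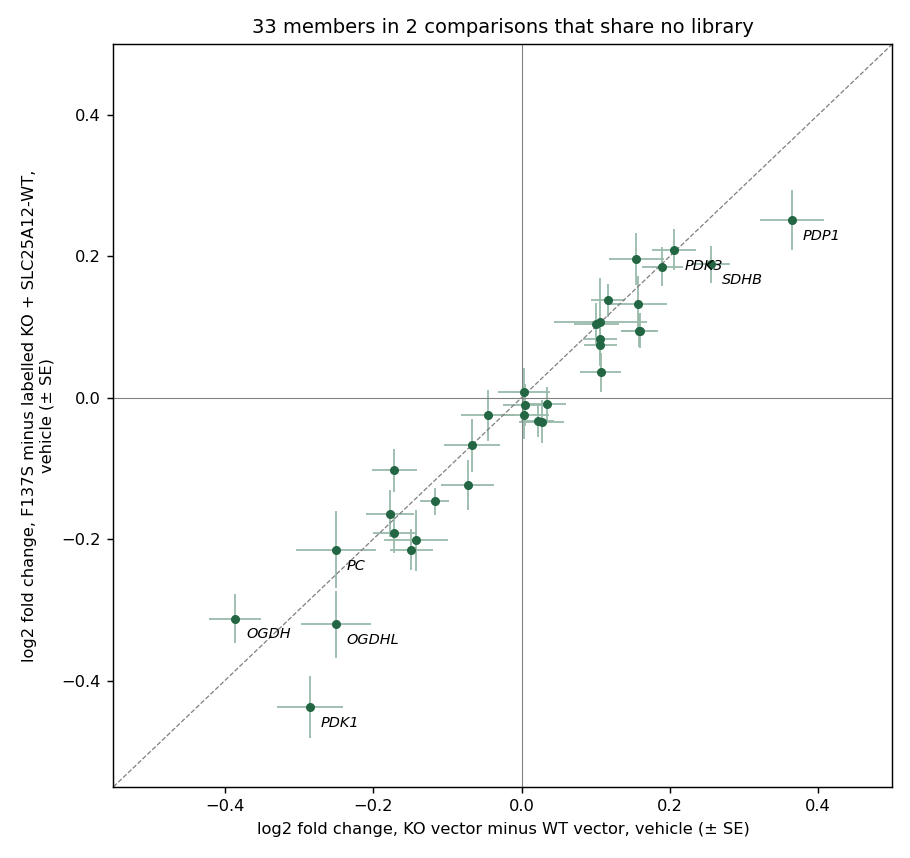
Log2 fold change (± SE) of the 33 members in KO-vector minus WT-vector cells (horizontal) and in F137S minus labelled KO plus SLC25A12-WT cells (vertical), both on vehicle; the dashed line marks equal values. The points lie along the line, with OGDH and PDK1 at the lower left and PDP1 at the upper right.

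The libraries labelled KO plus SLC25A12-WT differed from WT-vector cells on vehicle at 0 members and 0% of all tested genes by edgeR's test, with 4 members at an unadjusted p under 0.05, and DESeq2 called 0. Log2 fold changes of the members there ran from -0.14 to 0.15. Against KO-vector cells the same libraries had 10 members higher and 13 lower (47.8% of tested genes were called, 25.3% higher and 22.6% lower). F137S and KO-vector cells on vehicle differed at 0 members by edgeR's test, where 0.0836% of tested genes were called, with 2 members at an unadjusted p under 0.05 and 0 called by DESeq2. Their members ran from -0.11 to 0.06. With antimycin F137S and KO-vector cells again differed at 0 members (0.114% of tested genes were called), with 1 at an unadjusted p under 0.05 by edgeR and 0 called by DESeq2. Their antimycin responses differed at 0 members by edgeR, with 0 at an unadjusted p under 0.05, 0% of tested genes called and 0 called by DESeq2. A p that misses the threshold does not show that these lines are alike.

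dMTS-DELE1 cells had lower levels of most members than F137S cells. On vehicle 21 were lower and 2 higher (41.8% of all tested genes were called, 24.1% lower and 17.7% higher), with a median log2 fold change of -0.11 beside -0.02 for all tested genes. The lower members included 15 of the 19 cycle genes, 3 of the 4 subunit genes and 2 of the 5 kinase and phosphatase genes. Calls that held under the alternatives and with each library left out numbered 20 of 23, and those of DLST, PDK2 and MPC2 did not. In a fit of those groups alone their adjusted p was 0.147, 0.085 and 0.144. The largest were OGDHL (-0.30 ± 0.048), IDH3G, a subunit of the NAD-dependent isocitrate dehydrogenase (-0.30 ± 0.037), PDK3 (-0.27 ± 0.029) and ACO1, the cytosolic aconitase that also regulates iron-responsive mRNAs (-0.23 ± 0.030). The 2 higher members were IDH1 (0.24 ± 0.033, adjusted p = 1.86e-08) and ME1 (0.14 ± 0.043), which both make NADPH in the cytosol. IDH1 stood at 122, 113, 115 and 114 CPM in F137S and 135, 134, 138 and 139 CPM in dMTS-DELE1 vehicle libraries, with no overlap. In the same libraries IDH2, the mitochondrial isoenzyme, had 85.1, 80.6, 82.3 and 81.9 CPM and 76.4, 75.7, 72.4 and 73.8 CPM, lower in each dMTS-DELE1 library. The ratio of IDH2 to IDH1 counts was 0.698 to 0.721 in F137S and 0.524 to 0.568 in dMTS-DELE1 libraries. SLC25A12 was also higher in dMTS-DELE1 cells, as given above, so its amount and that of DELE1 cannot be told apart in this comparison. The summed level of the 4 epithelial markers was 191 to 196 CPM in F137S and 211 to 231 CPM in dMTS-DELE1 vehicle libraries, and that of the 4 neuronal markers 182 to 194 against 169 to 179 CPM. These sums do not show that each marker moved, and the part of the markers in this difference was not tested.

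With antimycin the same lines differed at 27 members, 23 lower and 4 higher (54.3% of all tested genes were called, 28.8% lower and 25.5% higher). Of these calls 23 held under the alternatives and with each library left out. Those of SUCLA2, PDHX and PDP2, 3 of the 4 higher members, and of SDHD did not. OGDHL reached -0.65 ± 0.048 (adjusted p = 4.25e-20), with 20.8, 20.4, 18.9 and 21.4 CPM in dMTS-DELE1 and 32.3, 31.8, 31.1 and 32.99 CPM in F137S libraries. IDH3G was at -0.34 ± 0.037, PDK2 at -0.34 ± 0.062, ACO1 at -0.33 ± 0.030, IDH2 at -0.32 ± 0.029 and OGDH at -0.24 ± 0.035. ME1 was higher at 0.21 ± 0.044. Of the calls on vehicle and with antimycin, which share no library, 22 were made in both, 95.7% of the former and 81.5% of the latter, beside 80.5% and 62% over all tested genes. The tested genes include genes of lower count than any member.

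The antimycin response differed between dMTS-DELE1 and F137S cells at 4 members, all with a lower response in dMTS-DELE1 cells (11.9% of all tested genes were called, 3.7% lower and 8.24% higher). They were OGDHL (-0.36 ± 0.068, adjusted p = 9.44e-05), PDP1 (-0.20 ± 0.059, adjusted p = 0.0156), IDH2 (-0.17 ± 0.042, adjusted p = 0.00244) and IDH1 (-0.17 ± 0.046, adjusted p = 0.00874). OGDHL went from 28.4, 27.9, 27.1 and 27.2 CPM to 32.3, 31.8, 31.1 and 32.99 CPM with antimycin in F137S cells, and from 24.1, 22.5, 21.002 and 22.5 CPM to 20.8, 20.4, 18.9 and 21.4 CPM in dMTS-DELE1 cells, where the groups overlap. PDP1 went from 41.7, 44.6, 44.1 and 46.6 CPM to 50.6, 49.97, 49.7 and 49.6 CPM in dMTS-DELE1 cells. Without dMTS-DELE1 vehicle replicate 4 the PDP1 difference had an adjusted p of 0.0565, and the count rose to 7 without F137S antimycin replicate 2.

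**Figure D5:**
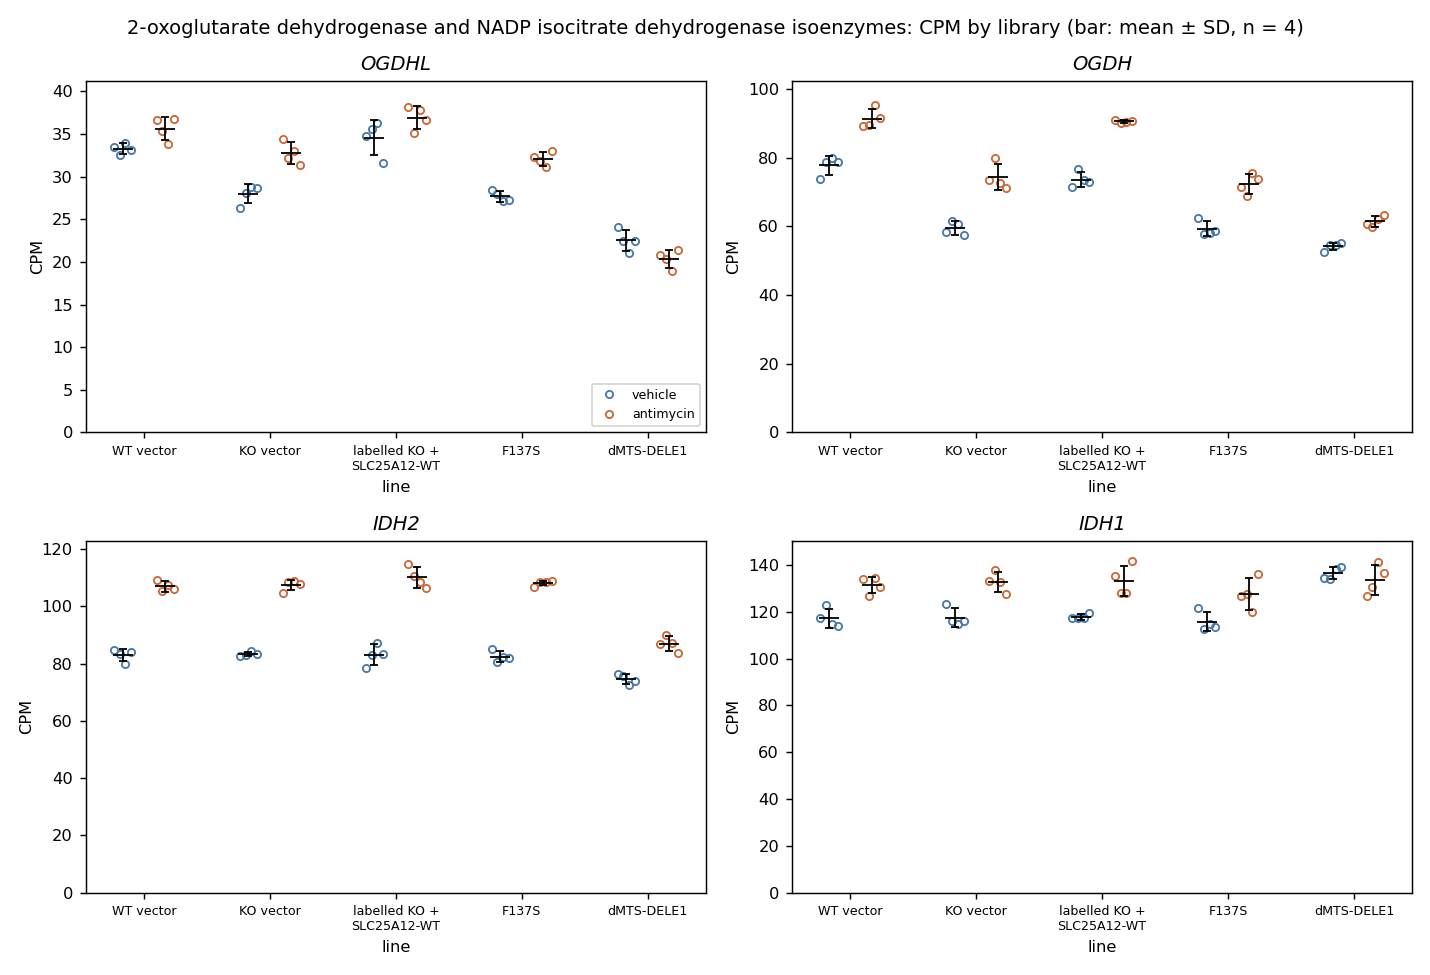
CPM in each library (circles) by line and treatment, with the mean ± SD of 4 libraries (bars), for OGDHL, OGDH, IDH2 and IDH1. OGDHL is lower with antimycin in dMTS-DELE1 cells alone among the lines, where IDH1 is also higher on vehicle than in each other line.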

How the data were processed

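The table deposited by the authors holds raw counts by gene symbol for 40 poly(A) RNA-seq libraries of HEK293T cells, without normalization. The submitters' processing notes name HISAT2 2.1.0, featureCounts 2.0.6 and hg38, while no source used here gives settings, annotation or strandedness. Counts were filtered with filterByExpr (16739 of 28278 symbols), scaled by TMM and fitted in edgeR 4.0.16 (R 4.3.3) by its robust quasi-likelihood method, each group having 1 coefficient. P-values of each of 18 contrasts were adjusted over all tested genes by Benjamini-Hochberg, with calls at an adjusted p under 0.05. Standard errors come from the test statistic, and fitted values use a prior count of 2. All members may be named, with library values for those of largest change, their isoenzymes and partners. The members and gene lists were chosen with earlier results of these data known.

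Lengths came from GENCODE exons and promoters from RefSeq. Alternatives were DESeq2 1.42.0 size factors and Wald test, no filter, a fit of only the groups compared, a replicate block, each library left out, a prior count of 0.5 and a fit that omits libraries labelled KO plus SLC25A12-WT. The last, and the 2 comparisons of F137S cells with those libraries, were added after seeing the data. No library was a copy of another. On simulated data for the WT-vector antimycin response (16220 genes), 18 of 50 genes changed 1.1-fold were recovered, 40 of 50 at 1.25-fold, 49 of 50 at 1.5-fold and 50 of 50 at 2-fold, with 8 false of 165 calls. Only these genes were changed there, while 51.9% of tested genes were called in the data. The adjusted cutoff was therefore stricter in the simulation, and its rates do not carry over to the member calls. Total counts per library were 30.7 to 32.0 in units of 1e6, and the precision of a value is given by the spread between libraries beside it.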

Additional observations from a re-analysis of the deposited data

Results flagged for a closer look

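Within a group of 4 libraries, 1 library stood apart from the others by Dixon's criterion in 20 of 330 sets of a member and a group, and chance gives about 1 in 20. In vehicle the values were 80.3 CPM for ACO1 and 86.1 CPM for PDHX in WT-vector replicate 4. KO-vector vehicle replicate 1 had 123 CPM for IDH1 and 92.6 CPM for SUCLA2, and replicate 4 had 77.0 CPM for SUCLG1. F137S vehicle replicate 1 had 80.0 CPM for SUCLG1. In libraries labelled KO plus SLC25A12-WT on vehicle, replicate 4 had 119.6 CPM for IDH1, and replicate 3 was low with 68.5 CPM for IDH3A, 24.0 CPM for PC and 44.4 CPM for ME1.

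With antimycin, WT-vector replicate 2 had 568 CPM for CS. WT-vector replicate 4 had 119 CPM for IDH3B, the lowest of its group, and 102 CPM for PDK3, the highest. KO-vector replicate 4 had 132 CPM for SUCLG2 and 62.7 CPM for PDP2, both the highest, and 34.9 CPM for ME1, the lowest. F137S replicate 1 had 107 CPM for IDH2, the lowest, and replicate 2 had 80.3 CPM for PDHX, the highest. In dMTS-DELE1 cells replicate 1 had 103 CPM for SDHD, the lowest, and replicate 3 had 39.2 CPM for PDK1, the highest.

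The antimycin response differed between dMTS-DELE1 and F137S cells, by the test of the difference itself in edgeR, for IDH1 (-0.17), IDH2 (-0.17), OGDHL (-0.36) and PDP1 (-0.20), as log2 values of dMTS-DELE1 minus F137S.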

How the results depend on the processing

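No member's log2 fold change that was called changed sign under an alternative, and counts of called members stayed within 1.5 times of the reported ones, except with single libraries left out. The 4 members whose response differed between dMTS-DELE1 and F137S cells became 3 to 7 with each library left out in turn, 7 of them without F137S antimycin replicate 2. The 0 members whose response differed between KO-vector and WT-vector cells became 0 to 1, with 1 without KO-vector vehicle replicate 4. For these counts the cause was not tested. Leaving out each library gave 14 to 20 called members for the antimycin response of WT-vector cells, 10 to 15 for dMTS-DELE1 cells and 23 to 24 for KO-vector against WT-vector cells on vehicle. Residuals of same-numbered libraries correlated at -0.0588 to 0.0510 over 180 pairs, so the numbers do not pair the samples. With the replicate block 23 members were called for KO-vector against WT-vector cells and 23 for dMTS-DELE1 against F137S cells, both on vehicle. With libraries labelled KO plus SLC25A12-WT omitted, the antimycin response of F137S cells had 18 called members in place of 23.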

Other observations

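Beyond the members, CPT2, carnitine palmitoyltransferase of the inner membrane, fell with antimycin in all 5 lines, from -0.35 in libraries labelled KO plus SLC25A12-WT to -0.18 in F137S cells on the log2 scale. ACSS2, which makes acetyl-CoA from acetate, rose in all 5, from 0.33 in dMTS-DELE1 to 0.42 in F137S cells. DHTKD1, an E1 relative of OGDH in lysine breakdown, rose by 0.20 to 0.26. FDXR, ferredoxin reductase, rose by 0.20 to 0.41. PDK4, a kinase of the same family as PDK1, rose in WT-vector cells (0.49, adjusted p = 0.0083 by edgeR) and stood at 0.03 in KO-vector cells (adjusted p = 0.894). The difference between those responses was -0.46 as KO-vector minus WT-vector and was not called by edgeR (adjusted p = 0.422). SLC25A1, the citrate carrier, was lower in dMTS-DELE1 than in F137S cells on vehicle (-0.36) and with antimycin (-0.44).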
